A study of Mus musculus with 36 samples.

Results

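The interferon beta locus is described here through the 19 accessible regions, or peaks, that overlap Ifnb1 or lie within 50 kb on either side of it, of 119751 peaks counted in all. They were chosen by position and by no measured value, though the window was set with earlier results of these data known. Each library was made by ATAC-seq, which uses a transposase to cut and tag open chromatin, from 50000 cells. The cells were bone marrow-derived dendritic cells grown with 15 ng/mL GM-CSF from the marrow of female C57BL/6J mice aged 6 to 8 weeks. Each of 18 groups had 2 libraries. The control (Ctrl) carried no ligand, and the other groups were stimulated for 6 h with ligands of pattern recognition receptors.

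The labels name 6 single ligands: P is PAM, L is LPS, H is HMW, S is SeV, cG is 3',3'-cGAMP and Z is zymosan, depleted. The 8 pairs were PL, PH, LH, PS, PcG, ScG, ZS and ZcG, and the 3 triplets were PLH, PScG and ZScG. All groups shared the strain, sex and culture. The labels do not say whether the 2 libraries of a group came from separate cultures or mice, so p-values measure only the spread between these samples. The libraries are bulk samples, in which more cells with an open site and a more open site per cell cannot be told apart.

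Ifnb1 encodes interferon beta, a type I interferon that cells secrete when RNA or DNA of a microbe is sensed. Viral RNA is read by the RIG-I-like receptors through Mavs, and cyclic dinucleotides such as cGAMP are read by Sting1. Both routes, and LPS through Tlr4 and Ticam1, lead to the kinase Tbk1 and the transcription factor Irf3. Irf3 and Irf7, NF-kappaB and ATF2/c-Jun bind a compact enhancer just upstream of the gene, and the secreted protein acts through Ifnar1 and Ifnar2 on many target genes.

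Mouse Ifnb1 (RefSeq gene 15977) has no intron and lies on the minus strand at chr4:88522025-88522794 (mm10), 770 bp long. The 250 bases before its RefSeq start are shown because the promoter peak covers them, beside those of the interferon alpha genes Ifna14, at the far edge of the window, and Ifna4, outside it. Capitals mark matches to AANNGAAA, the core of the sites that interferon regulatory factors bind, to the NF-kappaB motif GGGANNTTC and to TATAAA. The sequences are RefSeq's, build GRCm38.p6 (the assembly behind mm10), at chr4:88522795-88523044 (minus), chr4:88571799-88572048 (minus) and chr4:88841566-88841815 (plus).
Ifnb1: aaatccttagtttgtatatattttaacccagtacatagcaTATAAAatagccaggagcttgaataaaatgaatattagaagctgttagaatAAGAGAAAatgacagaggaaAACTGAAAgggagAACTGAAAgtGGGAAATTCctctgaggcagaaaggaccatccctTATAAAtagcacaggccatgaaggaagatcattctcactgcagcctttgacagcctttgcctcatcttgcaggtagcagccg
Ifna14: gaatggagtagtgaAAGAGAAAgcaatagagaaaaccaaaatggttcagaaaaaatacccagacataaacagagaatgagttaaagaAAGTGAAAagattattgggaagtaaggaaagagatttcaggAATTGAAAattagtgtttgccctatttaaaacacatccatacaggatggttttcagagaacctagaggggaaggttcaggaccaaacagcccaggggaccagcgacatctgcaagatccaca
Ifna4: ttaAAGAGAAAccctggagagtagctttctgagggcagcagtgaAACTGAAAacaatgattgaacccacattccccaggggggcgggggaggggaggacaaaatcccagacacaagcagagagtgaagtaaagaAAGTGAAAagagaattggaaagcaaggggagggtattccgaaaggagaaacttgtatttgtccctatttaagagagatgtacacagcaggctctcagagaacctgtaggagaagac
The Ifnb1 stretch held 3 matches to the interferon regulatory factor core, starting 159, 139 and 126 bases before the start, and 0.851% of 32544 promoters of the same length held as many. The Ifna14 and Ifna4 stretches also held 3 each. One NF-kappaB match lay directly after them, from 116 to 108 bases before the start. That motif was found in 3.22% of promoters, and in neither interferon alpha stretch shown. The AP-1 motif TGANTCA and the CRE motif TGACGTCA, found in 6.73% and 1.55% of promoters, had no match in the Ifnb1 stretch. Both strands were searched for every motif. A match is a string of letters and was not tested as a binding site.

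Libraries held 19097027 to 39977088 counts, of which one peak spanning the mitochondrial genome took 44.1% to 63.1% and was left out. That share split the groups: group means were 58.3% to 63.0% in Ctrl, Z, ZcG, ScG and ZScG, and 44.4% to 54.5% in the other 13 groups. ZS is placed by its mean, since its libraries, at 58.1% and 51.0%, fell on both sides. The labels name no batch that goes with the split. S, cG and 11 more stimulations lie on the other side of it from the control, so for those comparisons it and the stimulation cannot be told apart. Some comparisons that stay within 1 side are given below. Of the dendritic cell and macrophage markers, 11 of 11 had a peak at the start, with a summed level of 154 to 207 CPM per library (CPM being counts scaled to a fixed library size). Ciita, Mrc1 and Zbtb46 were low, Zbtb46 at 0 to 1.67 CPM. Of the markers of other cells, Cd4 was the only one of 4 T cell genes with a peak and S100a8 the only one of 4 granulocyte genes, and none of 3 B cell genes had one. Both stromal or epithelial genes, Epcam and Col1a1, had a peak, at a summed 2.92 to 10.8 CPM. S100a8 stood at 20.5 and 17.2 CPM in control, 8.11 and 9.66 CPM with SeV and 9.47 and 12.0 CPM with cGAMP. Cd4 stood at 3.60 and 4.34 CPM, 7.33 and 6.76 CPM, and 6.44 and 6.23 CPM in the same groups. Both markers thus moved with these stimulations without overlap with control. Several dendritic cell and macrophage markers did so too with both ligands. Ciita, Mrc1 and Cd14 were lower, and Spi1, Csf1r, H2-Ab1 and, slightly, Cd74 were higher. Ciita, for one, stood at 3.28 and 4.34 CPM in control, 1.70 and 1.91 CPM with SeV and 1.27 and 1.86 CPM with cGAMP. Cd74 moved little, from 39.7 and 39.3 CPM in control to 42.4 and 40.2 CPM with SeV and 40.3 and 40.9 CPM with cGAMP. The part of these markers in the results was not tested.

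Levels are CPM of the counts outside the mitochondrial genome, scaled by TMM, and differences are log2 fold changes ± SE from edgeR's quasi-likelihood test. A difference was called at a Benjamini-Hochberg adjusted p below 0.05, taken over all 119464 peaks tested. All 19 members were tested. Only 2 members overlap a gene, the promoter peak (358 bases before to 636 after the Ifnb1 start) and the peak 49.1 kb upstream, at the start of Ifna14. The other 17 are intergenic. They are named by the distance of their centre from the Ifnb1 start, upstream being the side of the interferon alpha cluster and downstream that of Hacd4.

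Among members, the promoter peak, the 3′ peak and the peaks 7.0 kb and 44.6 kb downstream were most often higher with SeV or cGAMP. This set of 4 was picked from the members by these calls, so the counts that follow describe it and are no test of it. Of the 9 stimulations that contain SeV or cGAMP, the 3′ peak and the 7.0 kb peak were higher than control in 9 and in none of the 8 without them. The 44.6 kb peak was higher in 9 of 9 and 1 of 8, and the promoter peak in 8 of 9 and 1 of 8. The peak 49.4 kb downstream, higher in 6 of 9 and 4 of 8, was left out of the set. Over all tested peaks, 0.237% were higher in all 9 and in none of the 8, and 4.68% were higher in all 9. These comparisons share the 2 control libraries. The 7.0 kb peak was higher in 9 of 9 and 0 of 8 also without either control library, though not under every setting given below. Without the first, the 3′ peak was higher in 9 of 9 and 1 of 8, the promoter peak in 7 of 9 and 0 of 8, and the 44.6 kb peak in 8 of 9 and 0 of 8. Without the second, the 3′ peak was higher in 8 of 9 and 0 of 8, the promoter peak in 8 of 9 and 1 of 8, and the 44.6 kb peak in 7 of 9 and 0 of 8.

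**Figure D1:**
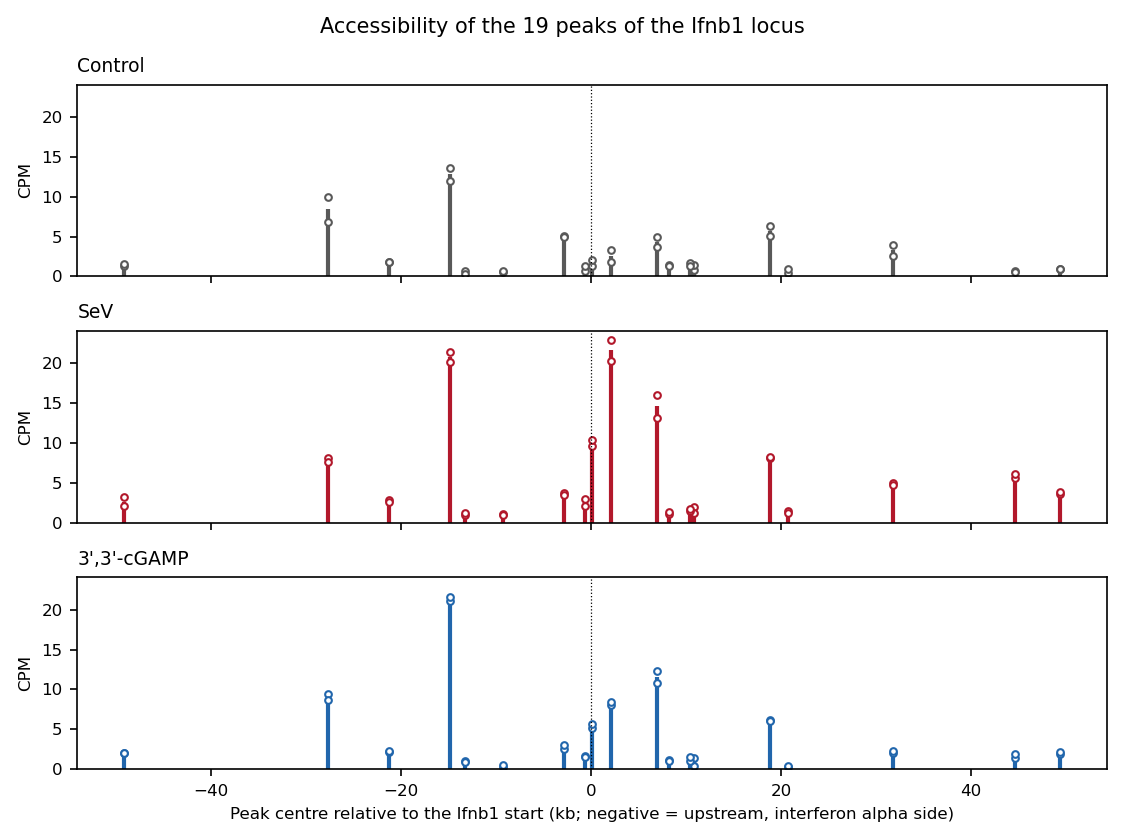
Levels (CPM, vertical axis) of the 19 peaks by the distance of their centre from the Ifnb1 start (kb, horizontal axis) in control, SeV and 3',3'-cGAMP cells. Points are the 2 libraries and bars end at their mean. The bars at and just downstream of the start are near the baseline in control and tall in SeV, and the peak 14.8 kb upstream is open in all 3.

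The promoter peak, which holds the enhancer and most of the gene, stood at 1.31 and 2.03 CPM in the control libraries (12 and 21 counts). With SeV it stood at 9.61 and 10.4 CPM. With cGAMP it stood at 5.17 and 5.66 CPM. Neither group overlapped the control. The log2 fold changes were 2.56 ± 0.35 for SeV (adjusted p = 2.3e-11) and 1.68 ± 0.36 for cGAMP (adjusted p = 4.8e-05), n = 2 against 2. The direct difference between SeV and cGAMP, 0.88 ± 0.27 with a 95% interval of 0.36 to 1.41, did not pass (adjusted p = 0.081).

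PAM and zymosan left it at 1.38 and 2.02 CPM and at 1.57 and 1.05 CPM, both overlapping the control. LPS stood at 1.48 and 3.02 CPM and HMW at 2.80 and 2.41 CPM. Neither passed the test against control, with differences of 0.45 ± 0.38 and 0.64 ± 0.38. SeV was higher than LPS by 2.11 ± 0.29 (adjusted p = 2.1e-09) and cGAMP was higher than LPS by 1.22 ± 0.30, which no longer passed without the first LPS library. SeV, cGAMP, PAM, LPS and HMW lie on the same side of the mitochondrial split.

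Ordered by mean, the promoter peak ran from Z, Ctrl, P, L, PLH, PH, H, PcG and LH through PL and ZcG to PScG, cG, ZScG, ZS, ScG, PS and S. In this order each of the first 8 groups overlapped the next in its libraries' range, as did PL and ZcG, and the run from ZScG to PS. The steps from LH to PL, from ZcG to PScG, from PScG to cG, from cG to ZScG and from PS to S had no overlap between neighbours, with 2 libraries each. Among groups without SeV or cGAMP, PL alone was called at the promoter, with 2.94 and 3.87 CPM and a difference of 0.99 ± 0.38 (adjusted p = 0.032). That call was lost without the first control library or the second PL library.

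The 3′ peak is the longest member, 2535 bp, and begins 119 bp past the end of Ifnb1. It stood at 3.28 and 1.83 CPM in control, 20.3 and 22.9 CPM with SeV and 8.03 and 8.45 CPM with cGAMP. The differences from control were 3.10 ± 0.28 (adjusted p = 1.3e-22) and 1.71 ± 0.29 (adjusted p = 2.2e-07). Here the direct difference between SeV and cGAMP passed, SeV being higher by 1.39 ± 0.21 (adjusted p = 1.1e-06). In PAM-treated cells the peak stood at 1.22 and 1.30 CPM, below both control libraries, with a difference of -0.99 ± 0.37 (adjusted p = 0.041). That call was lost without the first control library and without either PAM library. Over the 18 group means of log2 CPM, the 3′ peak had r = 0.933 with the promoter peak, a description over groups from the same libraries.

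**Figure D2:**
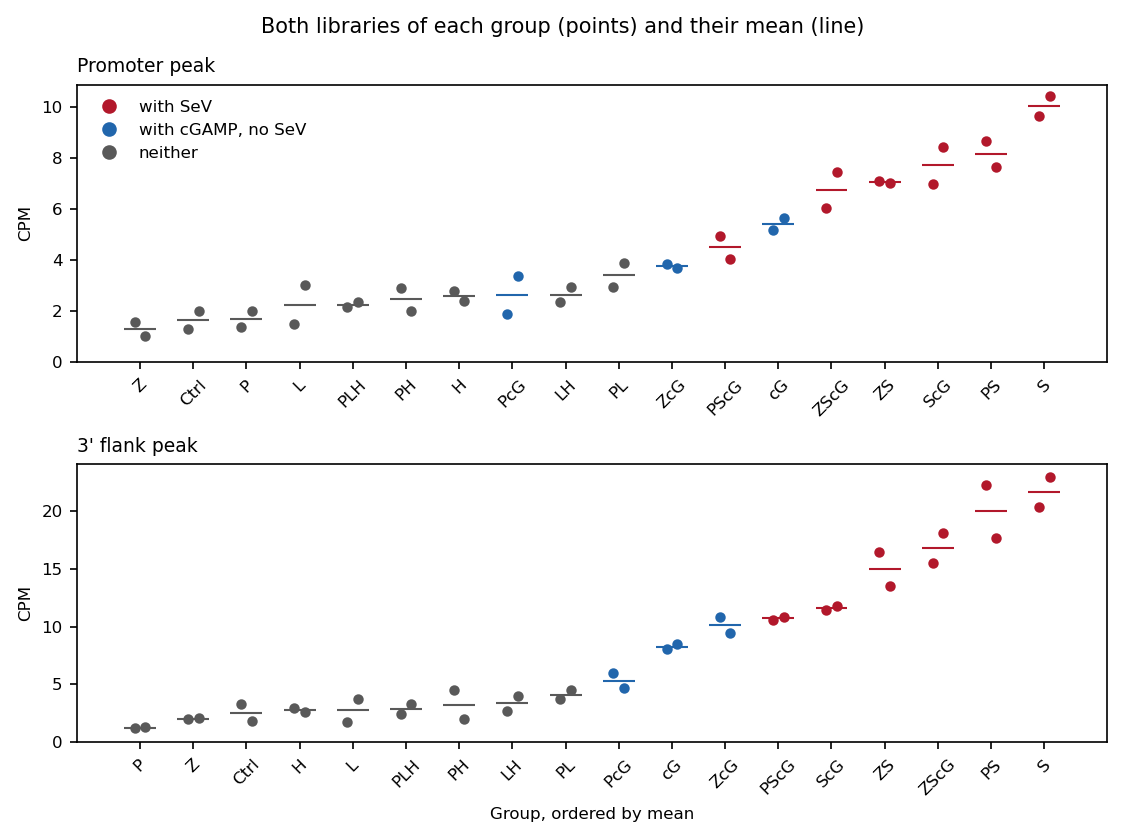
Levels (CPM, vertical axis) of the promoter peak (top) and the 3′ peak (bottom) in both libraries of the 18 groups (horizontal axis, ordered by mean). Points are libraries and lines are group means, in red for groups with SeV, blue for groups with cGAMP and no SeV, and grey for the rest. SeV alone is the highest group in both, and PcG sits among the grey groups at the promoter.

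The peak 7.0 kb downstream was already open in control, at 4.92 and 3.67 CPM. It stood at 16.1 and 13.1 CPM with SeV and 12.3 and 10.8 CPM with cGAMP. The differences were 1.77 ± 0.24 (adjusted p = 6.7e-11) and 1.44 ± 0.24 (adjusted p = 3.3e-07). LPS, at 7.28 and 5.99 CPM, and HMW, at 7.05 and 6.55 CPM, lay above both control libraries without passing, with adjusted p of 0.052 and 0.063. For this peak the absence of calls outside the SeV and cGAMP stimulations depended on the setting. It was higher in 6 of those 8 with total counts in place of TMM. Without peaks over 1% of counts, total counts gave 3. DESeq2's size factors and the mitochondrial peak kept gave 2 each, and DESeq2 and a replicate block gave 1 each. It was higher in none without the filter, with only the libraries compared, or with thinned counts.

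The peak 44.6 kb downstream lies 43556 bp from the end of Ifnb1 and 39008 bp from Hacd4, its nearest protein-coding gene. It had 0.655 and 0.579 CPM in control, 5.63 and 6.15 CPM with SeV and 1.43 and 1.93 CPM with cGAMP. The SeV difference of 3.24 ± 0.53 (adjusted p = 2.9e-09) was the highest of any member in a single-ligand comparison with control. The cGAMP difference was 1.44 ± 0.56 (adjusted p = 0.035), and that call was lost without either control library or the second cGAMP library. SeV exceeded cGAMP by 1.80 ± 0.39. Without the first cGAMP library this difference no longer passed.

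Counted over the locus, 7 of 19 members were higher and none lower with SeV, where 27.9% of all tested peaks were called in either direction and 14.1% higher. With cGAMP 5 were higher and 1 lower (all peaks 23.3%, higher 11.6%). PAM gave 1 higher and 2 lower (20.5% of all peaks called), LPS 1 and 1 (22.3%), and zymosan 1 higher (5.91%). HMW gave no call by edgeR (10.7%), with 2 members at an unadjusted p below 0.05 and none called by DESeq2. Every comparison with SeV in it had 5 to 7 members higher: PS 7 (33.4%), ScG 7 (27.7%), ZS 6 (28.3%), PScG 7 (37.1%) and ZScG 5, with 2 lower (32.3%). PcG had 5 higher and 2 lower (33%) and ZcG 5 higher (21.6%). Without either ligand the counts were PL 1 higher (27.3%), PH 2 higher (26.4%), LH 1 higher (21.8%) and PLH 3 higher and 2 lower (29.7%). The shares given for pairs and triplets are of all tested peaks called in either direction. Most counts outside the SeV and cGAMP stimulations are below or near this background. Counted in both directions, PS, PcG, ZS, ZcG, PScG and ZScG are also near it.

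Over the 17 comparisons with control, 74 of 323 member tests were called, 64 higher and 10 lower. In the same comparisons 5.91% (zymosan) to 37.1% (PScG) of all tested peaks were called. This total is therefore not read as a response of the locus. With total counts, which raise the median of all peaks by up to 0.45, the member calls were 93 higher and 1 lower. The lower calls described below are those under TMM.

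**Figure D3:**
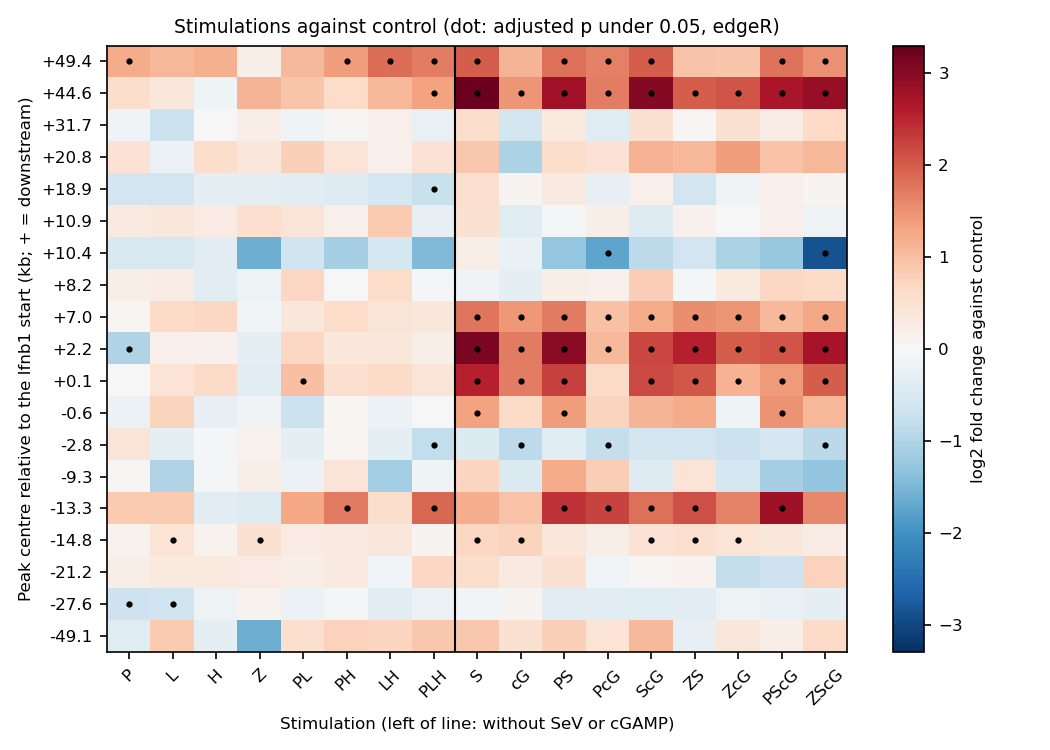
Log2 fold change against control (colour) of the 19 peaks (rows, by distance of the centre from the Ifnb1 start in kb) in the 17 stimulations (columns, those without SeV or cGAMP left of the line). Dots mark an adjusted p below 0.05 by edgeR. The red rows at +0.1, +2.2, +7.0 and +44.6 kb turn on right of the line, and the rows at -13.3 and +49.4 kb are red on both sides of it.

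Comparisons within the side of the mitochondrial split that holds the control were also made. The promoter peak exceeded control by 2.18 ± 0.36 in ScG, 1.99 ± 0.37 in ZScG and 1.16 ± 0.38 in ZcG. The 3′ peak did so by 2.2 ± 0.29, 2.73 ± 0.29 and 2.00 ± 0.30. The 44.6 kb peak did so by 3.03 ± 0.54, 2.88 ± 0.55 and 2.07 ± 0.56. All 9 passed the test. The ZcG call at the promoter (adjusted p = 0.016) was lost without the first control library and without either ZcG library.

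On the upstream side, the peak 0.6 kb away, separated from the promoter peak by a short gap, had 0.655 and 1.35 CPM in control and 3.01 and 2.09 CPM with SeV. It was higher with SeV (1.32 ± 0.52), PS (1.39 ± 0.51) and PScG (1.49 ± 0.52), with adjusted p between 0.012 and 0.037. All 3 calls were lost without the first control library. The peak 2.8 kb upstream went the other way, from 5.02 and 4.92 CPM in control to 2.47 and 3.01 CPM with cGAMP (-0.85 ± 0.32, adjusted p = 0.037). It was also lower in PcG, PLH and ZScG. These 4 calls were lost with total counts and without either control library.

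The peak 14.8 kb upstream was open in every group, at 12.0 and 13.6 CPM in control and 12.0 to 21.7 CPM over all 36 libraries. It was higher with SeV (20.1 and 21.4 CPM, 0.69 ± 0.16), cGAMP (21.1 and 21.6 CPM, 0.73 ± 0.16) and LPS (0.46 ± 0.16). The LPS call was lost without the first control library or either LPS library. Zymosan (18.1 and 18.6 CPM), ScG, ZS and ZcG also passed. The zymosan call (0.52 ± 0.17, adjusted p = 0.049) was lost under 10 of its 13 alternatives. Its neighbour 13.3 kb upstream was scarce, 0.655 and 0.289 CPM in control, and was called in 7 stimulations with 2 or 3 ligands and in none with 1. The highest was PScG, at 3.50 and 3.06 CPM (2.79 ± 0.65, adjusted p = 3.9e-05).

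The peak 49.4 kb downstream was higher in 10 stimulations, 6 of 9 with SeV or cGAMP and 4 of 8 without. It stood at 0.874 and 0.965 CPM in control, 3.66 and 3.81 CPM with SeV (2.01 ± 0.47) and 2.97 and 3.73 CPM in LH (1.84 ± 0.47). Among members called lower, the peak 27.6 kb upstream fell with PAM (-0.68 ± 0.24) and LPS (-0.67 ± 0.24), from 6.88 and 9.93 CPM in control. Both calls were lost with total counts and without the second control library. The peak 10.4 kb downstream was lower in PcG and ZScG, at no more than 1.78 CPM in any library. The peak 18.9 kb downstream was lower in PLH. The PcG call was lost without any 1 of the 4 libraries compared, the ZScG call without the first ZScG library, and the PLH call without the second control or either PLH library.

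The remaining 7 members, 31.7, 20.8, 10.9 and 8.2 kb downstream and 9.3, 21.2 and 49.1 kb upstream, were called against control in no stimulation. The last is the Ifna14 start, which had a SeV difference of 0.88 (adjusted p = 0.12). Their levels ran from 0 to 5.47 CPM over all libraries, where 3 counts are worth 0.121 to 0.414 CPM, so small differences were not detectable at this depth.

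Just outside the window, the nearest peak on the upstream side, 50.6 kb from the gene, had 4.37 and 5.40 CPM in control and 4.97 and 3.69 CPM with SeV. The nearest on the downstream side, 50.1 kb away, went from 3.71 and 3.76 CPM to 1.70 and 1.60 CPM (-1.18, adjusted p = 0.017). Between 50 and 500 kb, 21 of 107 tested peaks were higher and 33 lower with SeV. Over all tested peaks 27.9% were called in either direction and 14.1% higher. The median difference of the flanking peaks was -0.33, beside 0.0041 over all peaks and 0.72 over the 19 members. With total counts 31 flanking peaks were higher and 9 lower.

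The single ligands compared with each other use no control library. SeV against cGAMP called 3 members, all higher (0.948% of all peaks called), against LPS 6 higher (9.85%), against HMW 7 higher (9.06%), against PAM 8 higher and 1 lower (24.5%) and against zymosan 8 higher (17.4%). cGAMP called 4 higher against LPS (7.22%), 5 higher against HMW (7.35%), 6 higher and 1 lower against PAM (23.8%) and 4 higher and 1 lower against zymosan (15.5%). The promoter, 3′ and 7.0 kb peaks were among those called higher in each of these 8 comparisons of SeV or cGAMP with another single ligand, of which those with zymosan cross the mitochondrial split. The remaining single-ligand comparisons called few: LPS against PAM 2 higher (11.1%), LPS against zymosan 2 higher and 1 lower (13.4%), HMW against PAM 1 higher (12.1%) and PAM against zymosan 1 lower (11.1%). LPS against HMW (3.7%) and HMW against zymosan (3.71%) called none by edgeR or DESeq2, with 5 and 6 members at an unadjusted p below 0.05.

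A second ligand changed few members relative to SeV alone, and few of all tested peaks, so few calls are not particular to the locus. PAM on SeV called none of 19 by edgeR (2.94% of all peaks called), with 3 at an unadjusted p below 0.05 and none by DESeq2. At the promoter, PS stood at 8.65 and 7.63 CPM, a difference from SeV of -0.30 with a 95% interval of -0.80 to 0.19. At the 3′ peak the interval was -0.50 to 0.25. Zymosan on SeV called 2 members lower (2.52%). They were the 44.6 kb peak (-1.25 ± 0.38, adjusted p = 0.043) and the 18.9 kb peak (-1.17 ± 0.28). The 44.6 kb call was lost without any 1 of the 4 libraries compared, and the other without the first SeV or second ZS library.

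PAM on cGAMP called 2 members lower (9.11% of all peaks). At the promoter PcG stood at 1.89 and 3.38 CPM against 5.17 and 5.66 CPM for cGAMP alone, with no overlap. The difference was -1.06 ± 0.30 (adjusted p = 0.0094), and PcG did not pass against control (0.62 ± 0.37, adjusted p = 0.19). It no longer passed without the second cGAMP library or the first PcG library. The other member was the peak 14.8 kb upstream (-0.52), lost without either cGAMP library or the second PcG library. The 3′ peak, at 5.96 and 4.65 CPM, had -0.63 ± 0.23 (adjusted p = 0.062). Whether PAM acted differently on cGAMP and on SeV at the promoter was tested with a contrast chosen after the values were seen. It gave -0.76 ± 0.39 (adjusted p = 0.69), so a difference between the 2 was not shown.

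Zymosan on cGAMP called 1 member, the peak 20.8 kb downstream, higher (2.87% of all peaks), and any 1 of the 4 libraries ended that call when left out. At the promoter ZcG stood at 3.86 and 3.67 CPM, -0.52 from cGAMP with an interval of -1.14 to 0.09. The 3′ peak was lower in PcG than in ZcG by -0.92 ± 0.23 (adjusted p = 0.0029), the only member called between those groups (9.87%). That call was lost without the second PcG or first ZcG library and with total counts. PS against ZS called the 18.9 kb peak, higher (7.17%), and PScG against ZScG called the peak 21.2 kb upstream, lower (4.9%). Any 1 of the 4 libraries compared ended each of these 2 calls when left out. PcG and ZcG lie on different sides of the mitochondrial split, as do PScG and ZScG, cG and ZcG, and PS and 1 of the 2 ZS libraries, so the split and the swapped or added ligand cannot be told apart there.

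Read the other way, with SeV or cGAMP as the ligand added, more members were called, and so were more of all tested peaks. The rise in counts is therefore not read as particular to the locus, and for cGAMP on PAM the count is near the share over all peaks. SeV on PAM called 8 members higher and 1 lower (18.1% of all peaks called), PAM and PS lying on the same side of the split. The promoter peak rose by 2.25 ± 0.32 (adjusted p = 1.3e-09), the 3′ peak by 3.97 ± 0.31, the 7.0 kb peak by 1.65 ± 0.22 and the 44.6 kb peak by 2.18 ± 0.43. These 4 calls held without any 1 library. The other 5, at 18.9 kb downstream and 0.6, 2.8, 13.3 and 49.1 kb upstream, were each lost without at least 1 library of the groups compared, and the 2.8 kb peak was the lower one (-0.83 ± 0.28). cGAMP on PAM, also within 1 side, called the 3′ peak (2.07 ± 0.33) and the 7.0 kb peak (0.91 ± 0.23) higher and the peak 2.8 kb upstream lower (-1.20 ± 0.29; 14.8%). The 7.0 kb call was lost without the second PAM or second PcG library, and the promoter peak did not pass (0.60 ± 0.35, adjusted p = 0.25).

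ZcG and zymosan alone both lie on the side of the control. cGAMP on zymosan called 4 members higher (9.08%). The promoter peak stood at 1.57 and 1.05 CPM with zymosan and 3.86 and 3.67 CPM in ZcG (1.54 ± 0.42, adjusted p = 0.0057), a call lost without the second zymosan library. The 3′ peak, at 1.97 and 2.10 CPM with zymosan and 10.9 and 9.46 CPM in ZcG, rose by 2.31 ± 0.33, and the 7.0 kb peak by 1.56 ± 0.26, both also without any 1 library. The fourth was the Ifna14 start (1.97 ± 0.66), which any 1 of the 4 libraries ended when left out. SeV on zymosan called the promoter (2.44 ± 0.40), 3′ (2.87 ± 0.32) and 7.0 kb (1.64 ± 0.26) peaks and the peak 13.3 kb upstream (2.55 ± 0.76) higher (15.2%), the last lost without the first zymosan or first ZS library. By its mean ZS lies across the mitochondrial split from zymosan, so the split and SeV cannot be told apart there.

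**Figure D4:**
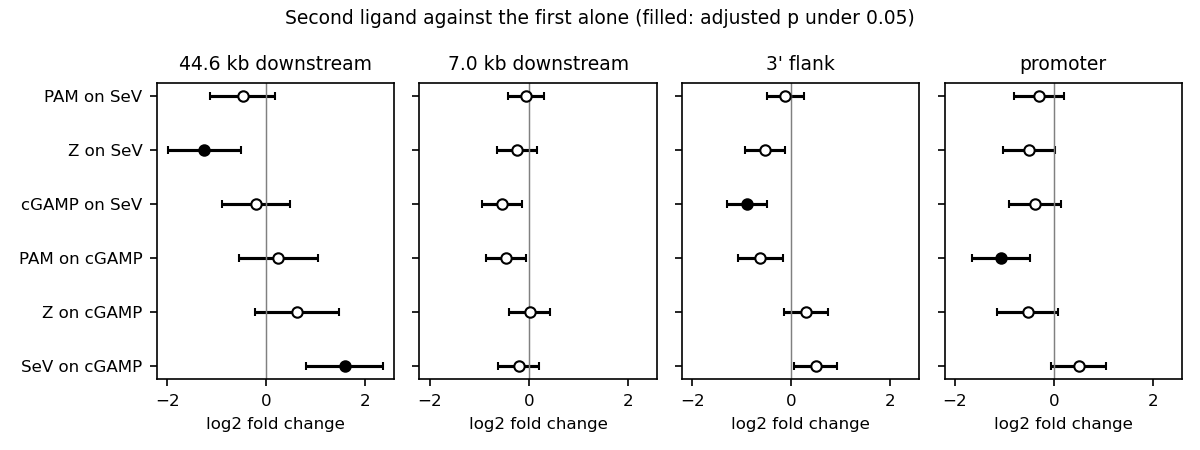
Log2 fold change (horizontal axis) when a second ligand was added to SeV or cGAMP (rows) at 4 peaks (panels). Points are estimates, bars are 95% intervals and filled points have an adjusted p below 0.05 by edgeR. PAM on cGAMP is the filled point at the promoter, cGAMP on SeV the one at the 3′ peak, and both zymosan on SeV and SeV on cGAMP are filled at 44.6 kb.

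SeV and cGAMP together did not exceed SeV alone at these peaks. The promoter stood at 6.97 and 8.42 CPM in ScG, -0.38 from SeV with an interval of -0.91 to 0.14. The 3′ peak, at 11.4 and 11.8 CPM, was lower than with SeV by -0.90 ± 0.21 (adjusted p = 0.011), the only member called (0.581% of all peaks). Each of the 4 libraries ended that call when left out. Against cGAMP, ScG called 3 members higher (4.94%), among them the 44.6 kb peak (1.59 ± 0.40), lost without the first cGAMP or first ScG library. ScG lies on the other side of the mitochondrial split from both SeV and cGAMP, so the split and the added ligand cannot be told apart here.

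The pair interaction, AB - A - B + Ctrl, is the part of a pair's log2 change that its ligands' own changes do not add up to. For ScG it was called at 4 members, all negative (14.4% of all peaks called): the 3′ peak at -2.60 ± 0.36 (adjusted p = 6.0e-10), the promoter at -2.06 ± 0.45, the 7.0 kb peak at -1.97 ± 0.32 and the 14.8 kb upstream peak at -0.94 ± 0.22. These 4 estimates set Ctrl and ScG, on one side of the mitochondrial split, against S and cG on the other. The split does not cancel in the other interactions either, except by group means in that of ZS, since the control lies apart from P, L, H, S, cG and their pairs and cG lies apart from Z and ZcG. For PL it was positive at 2 members (6.77%), the 3′ peak (1.50 ± 0.47) and the peak 27.6 kb upstream (1.15 ± 0.34). ZS (3.43%) and ZcG (2.49%) had 1 negative call each, at the 44.6 kb peak (-2.37 ± 0.71) and the 14.8 kb upstream peak (-0.80 ± 0.23). PH, LH, PS and PcG had none by edgeR or DESeq2 (1.55%, 4.88%, 4.58% and 3.27% of all peaks), with 3, 1, 2 and 2 members at an unadjusted p below 0.05.

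Of 171 member tests of triplets against their pairs, 2 were called. Over all tested peaks these 9 comparisons called from 0% (PLH against PL) to 4.54% (PScG against ScG). Few calls are thus not particular to the locus. The 3′ peak, at 10.6 and 10.8 CPM in PScG, was lower than in PS by -0.89 ± 0.20 (adjusted p = 0.0088; 0.602% of all peaks called) and higher than in PcG by 1.00 ± 0.22 (adjusted p = 0.010; 0.411%). Leaving out the first PS library or either PScG library ended the first call, and leaving out any 1 library of the groups compared ended the second. No triplet interaction was called by edgeR or DESeq2 among 57 member tests, of which 5 had an unadjusted p below 0.05 (0.783%, 2% and 1.89% of all peaks in PLH, PScG and ZScG).

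The pathway around Ifnb1 was read at the peak nearest the start of 48 genes, all of which had one. With SeV 24 were higher and 2 lower, and with cGAMP 27 and 1, where 14.1% and 11.6% of all tested peaks were higher. With total counts the SeV split was 39 and 0. Among sensors, 3 of 8 rose and 1 fell with SeV. The adaptors and kinases had 2 of 7 higher and the receptor and signal genes 2 of 9, counts of 2 in short lists beside the 14.1% over all peaks. The transcription factors had 7 of 13 higher and 1 lower. Of the target genes 10 of 11 rose, with a median difference of 1.20. The highest were Oasl1 (2.05), a 2′-5′-oligoadenylate synthetase-like antiviral protein, and Cxcl10 (1.85), a chemokine. The lowest called were Tlr4 (-0.58), the LPS receptor, and Jun (-0.28), a subunit of AP-1.

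With LPS, 10 of the 11 target genes also rose (11.3% of all peaks higher), with a median of 0.85, while the Ifnb1 promoter, 3′, 7.0 kb and 44.6 kb peaks did not pass against control. With PAM none of the 11 rose and 1 fell. Over the whole list PAM gave 3 higher and 3 lower, where 20.5% of all peaks were called and 11.1% were higher. The highest were Nfkb2 (0.84), an NF-kappaB subunit, and Socs1 (0.41), an inhibitor of cytokine signalling. The lowest were Tlr3 (-0.73), a receptor for double-stranded RNA, and Tlr4 (-0.49). HMW and zymosan raised 6 and 5 of the 11 targets, with 5.23% and 4.16% of all peaks higher. Adding PAM to cGAMP lowered 11 of the 48 genes and raised 1 (3.52% of all peaks lower). Adding PAM to SeV lowered 2 and raised none (0.494% lower).

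The interferon alpha cluster begins within the window, on its upstream side. Ifna15 is the nearest protein-coding gene to the peaks 21.2 kb and 27.6 kb upstream, 13435 and 6978 bp away. The interferon alpha genes are near-identical copies, so reads may be lost or shared among them and the values are uncertain. Of 13 interferon alpha genes looked for, 6 had a peak within 1 kb. With SeV 5 were higher: Ifna2 by 3.91, Ifna4 by 2.67, Ifna5 by 2.09, Ifna1 by 1.97 and Ifna11 by 1.83. With cGAMP Ifna2 (2.96) and Ifna4 (1.88) were higher. The Ifnz peak was lower with SeV (-0.43, adjusted p = 0.014). Among the neighbours that are not interferons, Hacd4 had 1 peak higher and 4 lower of 11 with SeV, Klhl9 1 lower of 3, and Mtap 3 higher and 1 lower of 8. Focad had both higher and lower peaks. Over all tested peaks 27.9% were called with SeV (14.1% higher) and 23.3% with cGAMP (11.6% higher). The counts of Hacd4, Klhl9 and Mtap rest on few peaks and are not read as results.

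Outside the window, 95552 peaks with a mean of at least 1 CPM were ranked by the Pearson correlation of their 18 group means of log2 CPM with those of the promoter peak. The 10 most alike had r from 0.927 to 0.946. They lay in or at Rgl1, Tmem182, Fmnl2, Kif5c, Gnptab, Map3k5, Prex1 and Dtd1, and nearest to Ghitm (29174 bp away) and Gm38457 (50102 bp away). By Spearman's rank correlation 3 of the 10 stayed among the top 10. The groups share libraries' depth and scaling, and the ranking is a description.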

How the data were processed

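The values used are the deposited raw counts, unnormalized whole numbers for 119751 peaks in 36 libraries, joined to the deposited peak positions. Per the submitters' processing notes, Bowtie2 2.2.9, MACS2 (given there as version 1.4), bedtools and featureCounts were used with mm10. The treatment of duplicates, the shift of read ends for the transposase and whether peaks were called on pooled libraries are not given in the sources used here. Reads carry no molecular identifiers, so the limit given by 3 counts covers counting error only, while intervals of differences rest on the spread between libraries.

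The mitochondrial peak was left out, which left 8181254 to 21985891 counts per library. A filter by group (filterByExpr, minimum count 10) removed 286 peaks, and 119464 were fitted in edgeR 4.0.16 (R 4.3.3) by the quasi-likelihood method with TMM, an abundance trend of the dispersion, 18 coefficients and all 36 libraries, giving 18 residual degrees of freedom. Spread is largely shared among peaks in this fit, so SEs rest on more than the 2 libraries of a group. P-values were adjusted by Benjamini-Hochberg within each of 72 contrasts, of which 1 was added after values were seen.

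The window, the gene lists and the tests were chosen with earlier results of these data known. Every member is named, as are the 10 most alike peaks, the 2 highest and 2 lowest called pathway genes with SeV and with PAM, and the cluster genes with a called peak. The alternatives were DESeq2 1.42.0, other scalings, the mitochondrial peak kept, no filter, only the libraries compared, a replicate block, thinning to the smallest library, and leaving out each library with the dispersion trend and filter of the whole set. Total counts without peaks over 1% of counts were added after the data were seen, as were the alternatives of the flanking, pathway and cluster counts.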

Additional observations from a re-analysis of the deposited data

Results flagged for a closer look

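Differences between a ligand's effect alone and beside a second ligand, each tested as an interaction in edgeR, were found at 8 places. For SeV with cGAMP they were -2.60 at the 3′ peak, -2.06 at the promoter peak, -1.97 at the peak 7.0 kb downstream and -0.94 at the peak 14.8 kb upstream. These 4 kept their call under every alternative run. The mitochondrial share differed between the groups they set against each other, and its part in them was not tested. The next values, except that of zymosan with SeV by group means, also cross that difference. For PAM with LPS the values were 1.50 at the 3′ peak, where PAM alone lay below control, and 1.15 at the peak 27.6 kb upstream. For zymosan the values were -2.37 with SeV at the peak 44.6 kb downstream and -0.80 with cGAMP at the peak 14.8 kb upstream. The last 4 lost their call when single libraries were left out.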

How the results depend on the processing

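None of the called or named differences changed sign under any alternative run. The balance of flanking peaks with SeV did turn, from 21 higher and 33 lower to 31 and 9 with total counts and 24 and 22 with total counts without peaks over 1% of counts. The SeV difference at the promoter peak kept its call throughout, at 2.30 to 2.92 with single libraries left out. Of 180 other called or named differences, 55 lost their call with counts thinned to the smallest library, 24 with only the libraries of the groups compared, 21 with total counts, 12 with total counts without peaks over 1% of counts, 10 with DESeq2, 2 with DESeq2's size factors, 1 with the mitochondrial peak kept and none without the filter. Single libraries left out ended 255 of 756 calls checked, each from the groups of its own comparison, so a lone library was assumed to vary like the rest. Most members hold few counts, and thinning, which removes counts, ended more calls than any other single setting. Whether depth limits the calls of the full libraries was not tested. With total counts the calls were 15 for pair interactions, 4 for triplets against pairs, 3 for triplet interactions, 5 for PAM swapped for zymosan, 9 for lower flanking peaks and 39 for higher pathway peaks, and 10 of 18 groups kept their place in the promoter order (16 without peaks over 1% of counts). With only the libraries compared, 6 triplet tests were called. With thinning, the calls were 21 for a ligand added, 0 for triplets against pairs, 19 for lower flanking peaks and 3 for interferon alpha genes. With single libraries left out, the calls ran from 54 to 75 against control, 27 to 32 for a ligand added, 5 to 9 for pair interactions, 0 to 3 for triplets against pairs, 0 to 1 for triplet interactions, 51 to 60 among single ligands and 2 to 3 for PAM swapped for zymosan. For SeV they were 15 to 19 higher and 15 to 29 lower flanking peaks, 18 to 20 higher pathway peaks and 3 to 5 interferon alpha genes. Why these numbers of calls changed was not tested. The main fit did not treat the replicate numbers as pairing the libraries. Over 153 pairs of groups, deviations of same-numbered libraries correlated at -0.24 to 0.54 (median -0.077), with 45 over 0.1. Whether same-numbered libraries of some groups were prepared together was not tested. With the replicate block the calls against control numbered 74, the SeV difference at the promoter was 2.57, and 1 of the 180 was lost.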
